A study of Sus scrofa with 24 samples.

Results

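The genes described here encode the enzymes that break down stored fat and the proteins that hold them in check. They were chosen by name, and a probe belonged to the set when its gene symbol in the scanner files, or the symbol of its RefSeq transcript, was one of 9 listed genes. Probes were found for 8 of them, out of 5223 genes with a single symbol on the array: LIPE, PNPLA2, MGLL, ABHD5, PLIN1, AQP7, ADORA1 and PDE3B. The ninth, G0S2, an inhibitor of PNPLA2, was not analysed here. The 8 genes had 11 probes among the 43603 on the array, and all 11 passed the filter on dim probes, as did 28606 in total. LIPE had 3 of them, ADORA1 had 2 and each other gene 1. Transcripts of 7 genes were matched by accession, and PDE3B by the description in the files.

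Total RNA came from the subcutaneous fat of 24 pigs weighing 115 kg, 1 pig per array and 8 pigs per group. RFIneg pigs were of the low residual feed intake type and ate ad libitum, RFIplR pigs were of the high type held to the feeding level of the RFIneg pigs, and RFIpl pigs were of the high type and ate ad libitum. Residual feed intake compares what a pig eats with the amount forecast for its size and gain, so a low value means less feed for the same output. No transgene, drug or deletion is named for any group, and sex and age are not given in the sources used here.

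Fat cells keep triacylglycerol in a droplet. Lipolysis cuts it in steps: PNPLA2 (adipose triglyceride lipase) takes off the first fatty acid with ABHD5 as its co-activator, LIPE (hormone-sensitive lipase) takes the next, and MGLL (monoacylglycerol lipase) releases the glycerol, which leaves the cell through the channel AQP7. PLIN1 coats the droplet and gates access to it, and cyclic AMP, made under adrenergic stimulation, switches the pathway on through protein kinase A. ADORA1, the adenosine A1 receptor, lowers cyclic AMP through an inhibitory G protein, and PDE3B, a phosphodiesterase activated by insulin, degrades it.

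The probes of the genes on which the results below turn are shown by their first 30 of 60 bases, as the scanner files give them, because each value is the brightness of such a probe. The number after the name is the base of the target transcript at which the files place the probe, and no base is capitalised.
LIPE 1013: ttacaaacgcaatgaaacaggcctcagtgt
LIPE 2773: aacactaaaggcctcttgtacccacctgcc
LIPE 3065: cttggccctaccttgcaggtcggtttggtt
PLIN1 1167: tgtctgacgccctgaagggcgttactgaca
AQP7 345: tacctttaccaactgtgcaataggccgaat
ADORA1 532: agtgcgagttcgagaaggtgatcagcatgg
ADORA1 891: tatgccttccgcatccagaagtttcgggtt
Where a gene had several probes, its value is that of the probe with the highest mean level, which was the one at base 3065 for LIPE and at base 891 for ADORA1.

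A level below is log2 of the processed intensity of a probe minus log2 of the 75th percentile of all non-control probes on that array. All 11 probes were well above background on 8 of 8 arrays in each group, except the PDE3B probe, which was so on 8 RFIneg, 7 RFIplR and 8 RFIpl arrays. The arrays differed in brightness: the 75th percentile was between 69.4 and 94.4 on 7 dim arrays (2 RFIneg, 3 RFIplR and 2 RFIpl) and between 414 and 663 on the other 17. All 7 dim arrays were scanned on 1 of 3 days. Of the adipocyte markers, 9 of 9 were well above background on every array of every group. Of 14 skeletal muscle markers 10 were kept, and their summed level was between 3.71 and 4.78 in RFIneg, between 3.66 and 5.09 in RFIplR and between 3.91 and 5.53 in RFIpl, apart from RFIpl replicate 2 at 10.64. Of 7 keratinocyte markers 2 were kept, and their sum was -0.64 or lower in RFIneg, 0.18 or lower in RFIplR, and 5.86 and 4.39 in RFIpl replicates 7 and 8, against -0.34 or lower in the other 6 RFIpl arrays. Results are therefore also given without these arrays.

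Comparing RFIneg with RFIpl asks how the types differed when both ate freely. ADORA1, AQP7, LIPE, PLIN1 and MGLL lay higher in RFIneg fat, by 1.82, 1.73, 1.47, 1.40 and 1.39-fold, and ABHD5 lay lower, at 0.678 of the RFIpl level, while PNPLA2 and PDE3B were close to equal. In the limma fit over all 24 arrays none of the 8 genes passed an adjusted p of 0.05, where 0.206% of all probes did. An unadjusted p under 0.05 was found for 4 of 8, and for 1962 of 28606 probes. With the brightness class of the array as a block, ADORA1, AQP7, LIPE and PLIN1 rose, 4 of 8 genes, where 6.62% of all probes were called in either direction. Over the 8 genes the median difference was 0.48 on the log2 scale, against 0.02 over all genes. Of the 8 differences 7 were positive, of which PDE3B turned to -0.02 after normexp background correction. The 8 genes were chosen with earlier results of these data known. Their counts and medians, here and in the comparisons below, are therefore a description only.

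Comparing RFIplR with RFIpl asks what the lower feeding level went with inside the high type. No gene of the set passed in the pooled limma fit, where 0.297% of all probes did. An unadjusted p under 0.05 was found for 4 of 8, and for 2342 of 28606 probes. With brightness as a block ADORA1, AQP7 and PLIN1 rose in RFIplR, 3 of 8 genes, where 10.4% of all probes were called. The median difference was 0.14, against 0.01 over all genes, and 4 of 8 were positive, to which normexp added PDE3B at 0.23. Comparing RFIneg with RFIplR sets the types side by side at 1 feeding level: none of the 8 genes passed in either limma fit, and the share of all probes called was 0% in the pooled fit and 0% with the block. In the pooled fit 0 of 8 had an unadjusted p under 0.05, where 605 of 28606 probes did. All 8 differences were positive there, with a median of 0.24 against 0.03 over all genes, but PLIN1 turned to -0.04 with quantile scaling and PDE3B to -0.25 with normexp, where the median of all probes was -0.19, against -0.01 in the pooled fit. The moderated F test of any difference called none of the 8 in the pooled fit, where 0.28% of probes passed, and 4 of 8 with the block, where 9.03% of probes passed. Its unadjusted p in the pooled fit was under 0.05 for 4 of 8 genes and for 1959 of 28606 probes. RFIpl arrays serve in both of the comparisons with RFIpl and RFIneg arrays in both of those with RFIneg, so the comparisons are not independent of each other.

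**Figure D1:**
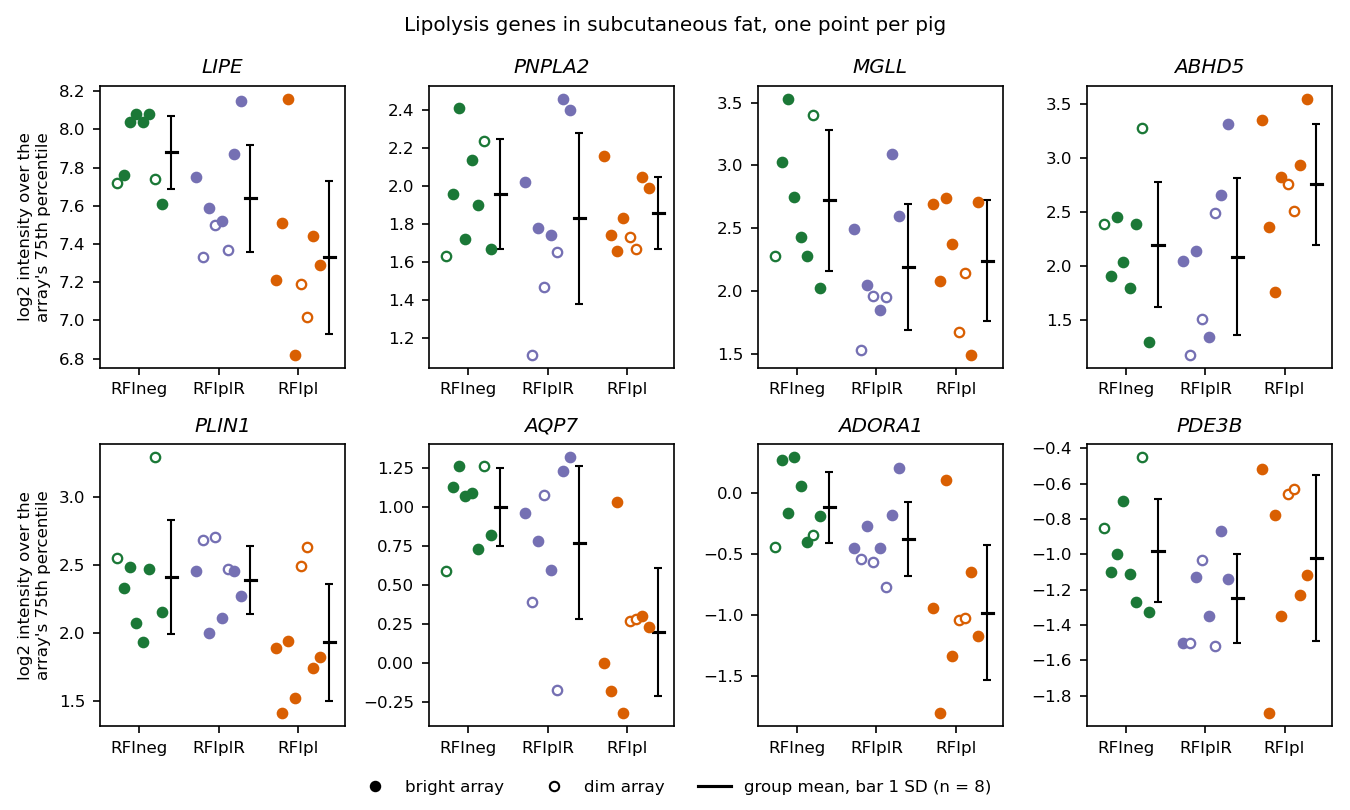
Level of each of the 8 genes on each array (log2 intensity over the array's 75th percentile) by group, with filled points for bright and open points for dim arrays and a bar for the group mean and 1 SD (n = 8). Most RFIpl points of LIPE, AQP7 and ADORA1 lie below the RFIneg points, with 1 RFIpl pig at 8.16, 1.03 and 0.10 among or above them.

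LIPE, the hormone-sensitive lipase, lay higher in RFIneg than in nearly all RFIpl arrays. Its level was between 7.61 and 8.08 in RFIneg with a median of 7.90, between 7.33 and 8.15 in RFIplR with a median of 7.56, and between 6.82 and 8.16 in RFIpl with a median of 7.25. The lowest RFIneg array stood above 7 of 8 RFIpl arrays, and the groups overlapped only through RFIpl replicate 3, the highest array of all 24. How many of all probes separate these groups as far was not counted. RFIneg averaged 7.88 ± 0.19, against 7.33 ± 0.40 for RFIpl (SD, n = 8 each), a difference of 0.55 (SE 0.17, 95% interval 0.21 to 0.90, adjusted p = 0.242 in the pooled limma fit). With brightness as a block the difference was 0.55 (SE 0.14, adjusted p = 0.0186). RFIplR, at 7.64 ± 0.28 (SD, n = 8), lay between them: 0.31 above RFIpl (adjusted p = 0.733, or 0.113 with the block) and 0.25 below RFIneg, a gap that did not pass either. Within the bright arrays RFIneg exceeded RFIpl by 0.53, and within the dim arrays, 2 and 2, by 0.63.

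The probes of LIPE gave the same order of groups at different brightness shifts. RFIneg minus RFIpl was 0.66 at base 1013, 0.72 at base 2773 and 0.55 at base 3065, and with the block all 3 passed, at adjusted p = 0.0317, 0.0122 and 0.0186 in limma. On dim arrays the probe at base 1013 read 2.77 ± 0.31 (SD, n = 7), against 0.99 ± 0.50 on bright ones (SD, n = 17), while the probe at base 2773 read 4.89 ± 0.34 and 5.78 ± 0.47. Dim minus bright was 1.79 at base 1013, where the classes did not overlap, and -0.89 at base 2773. Over the 17 bright arrays the levels of these probes went together pairwise with r between 0.92 and 0.96, and over all 24 arrays the r of the probes at 1013 and 2773 was -0.28, which describes probes of 1 transcript on the same arrays. The SD within groups at base 1013 was 0.91, 0.90 and 1.0 in RFIneg, RFIplR and RFIpl, and its pooled adjusted p was 1.

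**Figure D2:**
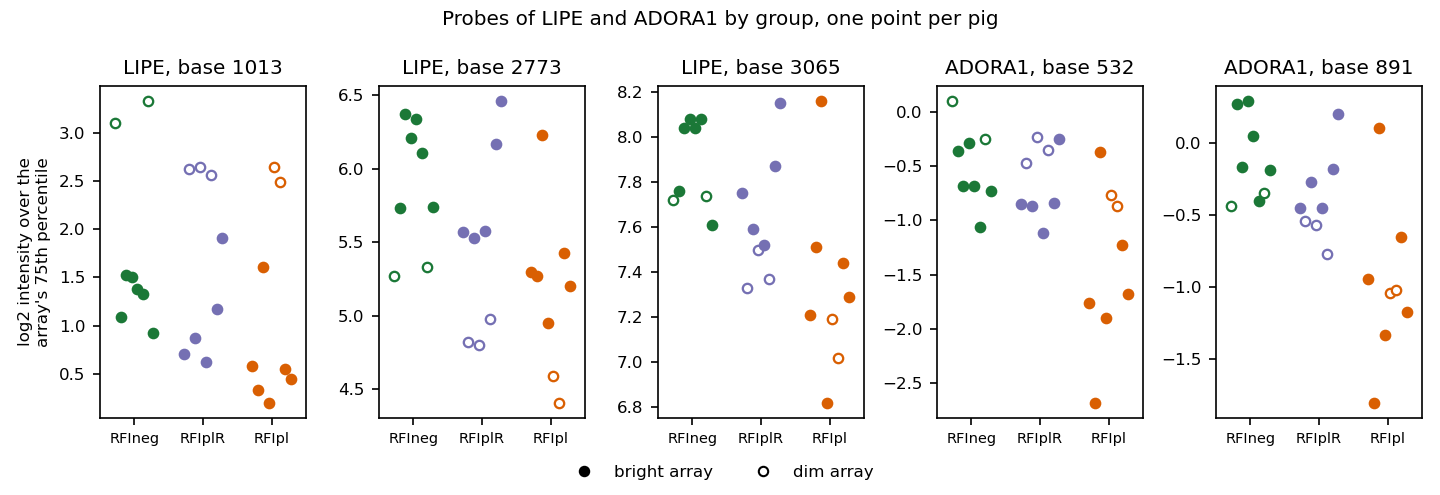
Level of the 3 LIPE and 2 ADORA1 probes on each array by group (log2 intensity over the array's 75th percentile), with open points for dim arrays and the transcript base of the probe above each panel. Dim arrays lie above the bright ones at LIPE base 1013 and in the lower part of the range at base 2773, and within each class RFIneg lies higher than most RFIpl arrays.

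PNPLA2, the lipase of the first step, showed the smallest spread of group means. Its level was between 1.63 and 2.41 in RFIneg (median 1.93), between 1.11 and 2.46 in RFIplR (median 1.76) and between 1.66 and 2.16 in RFIpl (median 1.79). The 3 groups lay over each other, and the lowest array was a dim RFIplR array. The mean was 1.96 ± 0.29 in RFIneg, 1.83 ± 0.45 in RFIplR and 1.86 ± 0.19 in RFIpl (SD, n = 8 each). RFIneg minus RFIpl was 0.10 with a 95% interval of -0.27 to 0.47, and RFIplR minus RFIpl was -0.03 with an interval of -0.40 to 0.34, neither past the threshold.

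MGLL, of the last step, was higher in RFIneg than in either group of the high type, within the spread. The level ran between 2.02 and 3.53 in RFIneg (median 2.59), between 1.53 and 3.09 in RFIplR (median 2.0) and between 1.49 and 2.74 in RFIpl (median 2.25). In RFIneg 4 arrays stood above every RFIpl array and 2 above every RFIplR array, and the rest overlapped. RFIneg minus RFIplR was 0.53 (SE 0.26, 95% interval -0.01 to 1.06, adjusted p = 0.999), RFIneg minus RFIpl was 0.48 (SE 0.26, 95% interval -0.06 to 1.01, adjusted p = 0.847), and RFIplR minus RFIpl was -0.05, all in the pooled limma fit. Neither of the RFIneg differences passed with the block, at adjusted p = 0.537 and 0.236. Both were larger over the few dim arrays. RFIneg minus RFIplR was 0.26 over the bright arrays and 1.03 over the 2 and 3 dim ones. RFIneg minus RFIpl was 0.33 over the bright arrays and 0.94 over the 2 and 2 dim ones.

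ABHD5, the co-activator of PNPLA2, was the 1 gene of the set that lay lower in both RFIneg and RFIplR than in RFIpl. Its level was between 1.30 and 3.28 in RFIneg (median 2.21), between 1.18 and 3.32 in RFIplR (median 2.1) and between 1.76 and 3.55 in RFIpl (median 2.80). Of the RFIpl arrays, 2 stood above all RFIneg and all RFIplR arrays, and the others overlapped with both. The mean was 2.20 ± 0.58 in RFIneg, 2.09 ± 0.73 in RFIplR and 2.76 ± 0.56 in RFIpl (SD, n = 8 each). RFIplR minus RFIpl was -0.67 (SE 0.31, adjusted p = 0.571, or 0.171 with the block), and RFIneg minus RFIpl was -0.56 (SE 0.31, adjusted p = 0.874, or 0.279 with the block). With weights for the quality of each array the RFIneg difference was -1.01 and passed (adjusted p = 0.0111 in limma), where 10.3% of all probes were called. Between brightness classes it did not hold its sign: -0.81 over the 6 RFIneg and 6 RFIpl bright arrays, and 0.20 over the 2 and 2 dim ones.

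PLIN1, the droplet coat, had near-equal means in RFIneg and RFIplR and a lower one in RFIpl: 2.41 ± 0.42, 2.39 ± 0.25 and 1.93 ± 0.43 (SD, n = 8 each). The level was between 1.93 and 3.29 in RFIneg (median 2.40), between 2.0 and 2.70 in RFIplR (median 2.45) and between 1.41 and 2.63 in RFIpl (median 1.85). The 2 highest RFIpl values, 2.49 and 2.63, were its dim arrays, and among bright arrays every RFIplR array, at 2.0 or more, stood above every RFIpl array, at 1.94 or less. The share of all probes that separate these arrays in this way was not counted. RFIplR minus RFIpl was 0.54 over the bright arrays and 0.06 over the 3 RFIplR and 2 RFIpl dim ones, which overlapped. RFIneg minus RFIpl was 0.48 (SE 0.20, adjusted p = 0.567), and 0.48 with the block (SE 0.12, adjusted p = 0.0220). RFIplR minus RFIpl was 0.46 (SE 0.20, adjusted p = 0.496), and 0.39 with the block (SE 0.12, adjusted p = 0.0473). Over all groups PLIN1 read 2.69 ± 0.28 on dim arrays (SD, n = 7) and 2.06 ± 0.33 on bright ones (SD, n = 17). RFIneg minus RFIplR was 0.02 with a 95% interval of -0.39 to 0.43.

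AQP7, the glycerol channel, differed by a wider margin. Its level was between 0.59 and 1.26 in RFIneg (median 1.08), between -0.17 and 1.32 in RFIplR (median 0.87) and between -0.32 and 1.03 in RFIpl (median 0.25). Every RFIneg array stood above 7 of 8 RFIpl arrays, whose highest among those 7 was 0.30. Only RFIpl replicate 3, at 1.03, lay inside the RFIneg range. How many of all probes separate these groups as far was not counted. The lowest RFIplR array, at -0.17, was a dim one. The mean was 1.0 ± 0.25 in RFIneg, 0.77 ± 0.49 in RFIplR and 0.20 ± 0.41 in RFIpl (SD, n = 8 each). RFIneg minus RFIpl was 0.79 (SE 0.21, 95% interval 0.36 to 1.22, adjusted p = 0.134), and 0.79 with the block (SE 0.19, adjusted p = 0.0169). RFIplR minus RFIpl was 0.57 (SE 0.21, adjusted p = 0.334), and 0.60 with the block (SE 0.19, adjusted p = 0.0489). Within the bright arrays alone both passed, at 0.84 (adjusted p = 0.0488) and 0.80 (adjusted p = 0.0439) in limma, where 1.04% and 3.34% of all probes did. Within the dim arrays neither passed: RFIneg minus RFIpl was 0.65 over 2 and 2 arrays (adjusted p = 0.669), and RFIplR minus RFIpl was 0.16 over 3 and 2 (adjusted p = 0.871).

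ADORA1, the receptor that restrains lipolysis, had the largest difference of the 8 genes. Its level was between -0.44 and 0.29 in RFIneg (median -0.18), between -0.77 and 0.20 in RFIplR (median -0.45) and between -1.80 and 0.10 in RFIpl (median -1.03). As for LIPE and AQP7, 7 of 8 RFIpl arrays stood below every RFIneg array and RFIpl replicate 3 stood among them. The share of all probes that separate the groups in this way was not counted. The lowest array was RFIpl replicate 2, the one with muscle transcripts. The mean was -0.12 ± 0.29 in RFIneg, -0.38 ± 0.30 in RFIplR and -0.98 ± 0.55 in RFIpl (SD, n = 8 each). RFIneg minus RFIpl was 0.86 (SE 0.21, 95% interval 0.43 to 1.29, adjusted p = 0.0925), and 0.86 with the block (SE 0.19, adjusted p = 0.00916). RFIplR minus RFIpl was 0.60 (SE 0.21, adjusted p = 0.287), and 0.64 with the block (SE 0.19, adjusted p = 0.0318). The other ADORA1 probe, at base 532, gave 0.91 and 0.71 with the block, both past the threshold (adjusted p = 0.0146 and 0.0365 in limma). In the pooled limma fit it gave 0.91 and 0.79, neither past it (adjusted p = 0.184 and 0.252). The levels of the pair went together with r = 0.98 over the bright arrays and 0.75 over all 24. Dim minus bright was 0.61 at base 532 and -0.26 at base 891.

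PDE3B, the other brake on cyclic AMP, had group means closer to each other than ADORA1. Its level was between -1.33 and -0.45 in RFIneg (median -1.05), between -1.52 and -0.87 in RFIplR (median -1.24) and between -1.90 and -0.52 in RFIpl (median -0.95). The groups overlapped, and the lowest array was RFIpl replicate 2. RFIneg minus RFIpl was 0.05 (95% interval -0.34 to 0.44) and RFIneg minus RFIplR was 0.28 (95% interval -0.11 to 0.67). RFIplR minus RFIpl was -0.23 (95% interval -0.62 to 0.16), and none of the 3 passed in either limma fit. Over the bright arrays RFIneg minus RFIplR was 0.11 and RFIplR minus RFIpl was -0.05. Over the few dim arrays, 2 RFIneg, 3 RFIplR and 2 RFIpl, these differences were 0.70 and -0.71.

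**Figure D3:**
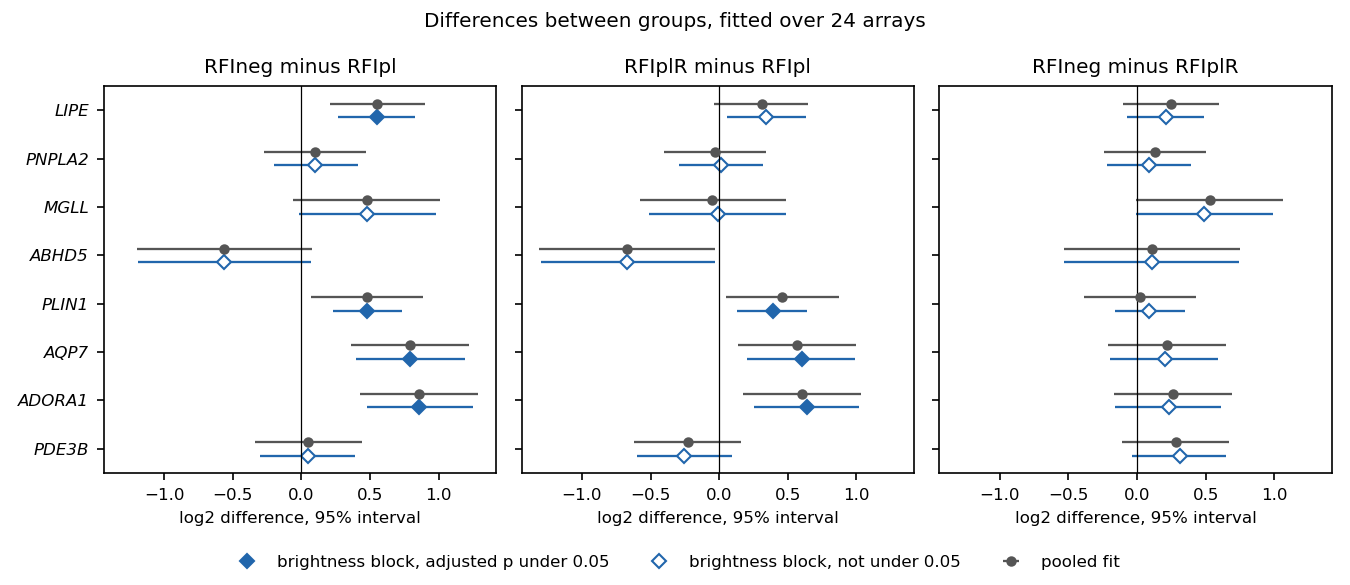
Log2 difference between groups for each gene with its 95% interval, from the pooled limma fit (grey) and with brightness as a block (blue, filled where the adjusted p was under 0.05). The filled points are LIPE, PLIN1, AQP7 and ADORA1 in RFIneg minus RFIpl and PLIN1, AQP7 and ADORA1 in RFIplR minus RFIpl, and every interval in RFIneg minus RFIplR crosses 0.

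These calls depended on which arrays entered. RFIpl replicate 3 was singled out by its levels of LIPE, AQP7 and ADORA1, where it alone overlapped with RFIneg. Leaving it out therefore widens these differences by construction, and the calls without it are no independent result. Without RFIpl replicate 3, LIPE, AQP7 and ADORA1 passed in the pooled limma fit of RFIneg against RFIpl, at 0.67 (adjusted p = 0.0243), 0.91 (0.021) and 1.02 (0.00406), and ADORA1 passed in RFIplR against RFIpl at 0.76 (0.0392). With the block as well, 4 genes passed in each of these comparisons, LIPE now among them in RFIplR against RFIpl (0.45, adjusted p = 0.0117). The share of all probes called without this array was 0.993% and 1.03% in the pooled fit of RFIneg against RFIpl and of RFIplR against RFIpl, and 11.9% and 12.8% with the block. Without RFIpl replicate 2, with the block, the same 4 genes rose in RFIneg against RFIpl, ADORA1 by 0.74 (adjusted p = 0.0144), and ADORA1 alone in RFIplR against RFIpl, by 0.52 (adjusted p = 0.0473), where 5.15% and 10.9% of all probes were called. Without RFIpl replicates 7 and 8, with the block, ADORA1 (0.87, adjusted p = 0.0291) and AQP7 (0.80, adjusted p = 0.0467) rose in RFIneg against RFIpl, LIPE and PLIN1 stood at adjusted p = 0.055 and 0.0582, and none of the 8 passed in RFIplR against RFIpl. The shares of all probes called were 3.09% and 6.23% in these comparisons. In the latter 4 of 8 genes had an unadjusted p under 0.05, as had 6576 of 28606 probes. With slide and brightness both as blocks none of the 8 passed in limma in RFIneg against RFIpl, RFIplR against RFIpl or RFIneg against RFIplR, where 1.45%, 5.92% and 0% of all probes did. ADORA1 came nearest in RFIneg against RFIpl at 0.86 (adjusted p = 0.0526). An unadjusted p under 0.05 was found for 4, 3 and 0 of 8 genes in the same order, and for 5532, 6705 and 2832 of 28606 probes.

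The median summed level of the adipocyte markers was highest in RFIneg and lowest in RFIpl. The means of LIPE, PLIN1, AQP7 and ADORA1 had this order, and those of the other genes of the set did not. The sum was between 10.05 and 10.68 in RFIneg (median 10.48) and between 9.91 and 10.56 in RFIplR (median 10.33). In RFIpl it was between 9.72 and 10.54 (median 10.13). By mean level 8 of 9 markers were higher in RFIneg than in RFIpl, and 7 of 9 in RFIplR. PPARG went the other way, at 5.31 in RFIneg and 5.15 in RFIplR against 5.38 in RFIpl. CD36 did so in RFIplR, at 6.40 against 6.58. Of the 9 markers 0 passed in the pooled limma fit of RFIneg against RFIpl, and 3 rose with the block, where 6.62% of all probes were called. In the pooled fit 4 of 9 had an unadjusted p under 0.05, where 1962 of 28606 probes did. In RFIplR against RFIpl 0 of 9 passed in the pooled fit, and 2 rose with the block, where 10.4% of all probes were called. In the pooled fit 2 of 9 had an unadjusted p under 0.05, where 2342 of 28606 probes did. In whole tissue, fewer cells of a type and less RNA per cell cannot be told apart, and the part of fat cell number in the results was not tested. The kept macrophage markers (4 of 9) summed to between 2.25 and 3.76 in RFIneg, 2.20 and 4.17 in RFIplR and 2.74 and 4.34 in RFIpl. The endothelial sum (6 of 6) was between 5.90 and 6.44 in RFIneg, 5.79 and 6.62 in RFIplR and 5.26 and 6.15 in RFIpl. The fibroblast sum (4 of 6) lay between 7.38 and 8.58, 6.66 and 8.63, and 7.80 and 8.35 in RFIneg, RFIplR and RFIpl, and that of the lymphocyte markers (3 of 5) between -2.63 and -0.24, -2.06 and -1.18, and -2.93 and -1.29. Their part in the results was not tested.

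Within groups, some of the genes went together from pig to pig. Over the 17 bright arrays, as deviations from the mean of each group, AQP7 and ADORA1 had Pearson r = 0.84 (p = 7e-04 and adjusted p = 0.0157 over 28 pairs, permutation test shuffling within groups) and Spearman rho = 0.82 (p = 4e-04 and adjusted p = 0.0115 by the same permutation test). Without the 2 arrays farthest out in AQP7, RFIpl replicates 3 and 4, their r was 0.69. AQP7 and LIPE had r = 0.80 (permutation p = 0.00268, adjusted p = 0.025) and rho = 0.64 (permutation p = 0.00887, adjusted p = 0.0621), and r = 0.52 without those 2 arrays. PNPLA2 and its co-activator ABHD5 had r = 0.75 (permutation p = 0.00112, adjusted p = 0.0157) and rho = 0.71 (permutation p = 0.00345, adjusted p = 0.0483), and r = 0.77 without the 2 arrays farthest out in PNPLA2. These were the 3 of 28 pairs past an adjusted p of 0.05 in Pearson's r, and 26 of 28 were positive. Which pairs stood out depended on RFIpl replicate 3. Without it r was 0.68, 0.61 and 0.74 for these 3 pairs in turn. It rose from 0.34 to 0.78 for PNPLA2 and AQP7, and from 0.06 to 0.67 for ABHD5 and AQP7. How often pairs of other genes correlate this closely within groups was not tested. The points share RNA, labelling and scaling of 1 array, which such values also carry.

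**Figure D4:**
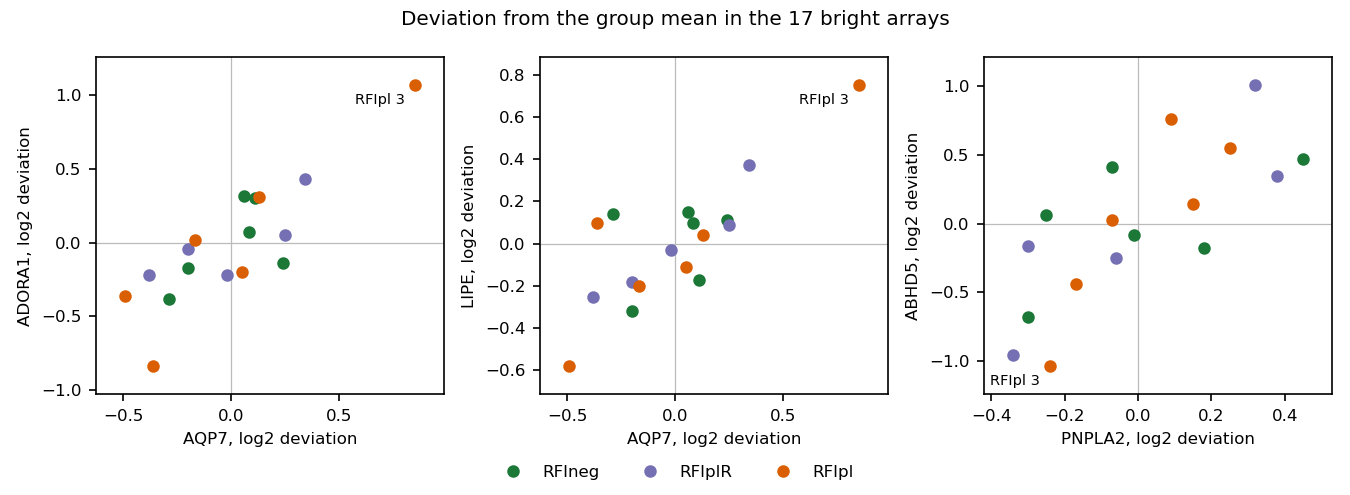
Deviation of each bright array from the mean of the bright arrays of its group (log2) for AQP7 against ADORA1, AQP7 against LIPE and PNPLA2 against ABHD5, 17 arrays coloured by group. RFIpl replicate 3 lies at the upper right in the first panels and at the lower left in the last, and r is 0.84, 0.80 and 0.75.

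By level over the 17 bright arrays, groups included, the genes most like each member were, as a description among 4201 genes with 1 symbol and with the highest of many values picked, the following. For AQP7 they were AQP11, another aquaporin (r = 0.95), AKR1CL1 and PCBD1 (r = 0.95 each). For LIPE they were CDK20 (r = 0.92), MAOA (0.90) and KLF15 (0.90), a Krüppel-like transcription factor. For ADORA1 they included DAZAP2 and AQP7 (r = 0.92 each). For PNPLA2 they were LPIN1, a phosphatidate phosphatase, RCL1 and ACADS, an acyl-CoA dehydrogenase (r = 0.84 each). For ABHD5 they were CITED1 (r = 0.85), HADHA (0.85), a subunit of the mitochondrial trifunctional protein of fatty acid oxidation, and DKC1 (0.84). For PLIN1 they were PEX7 (r = 0.86), RHBDD3 (0.85) and HEBP1 (0.85), for MGLL they included CDC25C (0.82) and CDC42 (0.80), and for PDE3B they were MAP2K1 (0.82), PGRMC1 (0.81) and SHOC2 (0.81).

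Among the signals that start lipolysis few genes passed. Of 18 listed genes of stimulation, adrenergic and other receptors, adenylyl cyclases and protein kinase A subunits, 13 were measured. None passed in the pooled limma fit of RFIneg against RFIpl, and none had an unadjusted p under 0.05. With the block 2 of 13 rose and 0 fell in RFIneg against RFIpl, where 6.62% of all probes were called in either direction: GHR, the growth hormone receptor, by 0.44 (adjusted p = 0.0325), and NPR1, the natriuretic peptide receptor, by 0.43 (adjusted p = 0.0427). In RFIplR against RFIpl, with the block, 3 of 13 rose, where 10.4% of all probes were called: PRKACB, a catalytic subunit of protein kinase A, by 0.40 (adjusted p = 0.0292), NPR1 by 0.42 (0.0375) and GHR by 0.40 (0.0404). The pooled differences of NPR1 and GHR there were 0.04 and 0.18, with 0 of 13 past the threshold in limma and 0 at an unadjusted p under 0.05. In RFIneg against RFIplR none passed, and ADCY4 (0.41) and PRKAR1A (0.23) had the smallest p.

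Of 21 genes of inhibition, among them insulin signalling and receptors coupled to inhibitory G proteins, 11 were kept. AKT1, a kinase downstream of insulin, was lower in RFIneg at 0.97 ± 0.29, against 1.59 ± 0.49 in RFIpl (SD, n = 8 each), a difference of -0.62 (SE 0.20, adjusted p = 0.297, or 0.0168 with the block). In RFIplR it was 0.85 ± 0.30 (SD, n = 8), -0.74 from RFIpl (SE 0.20, adjusted p = 0.110), and -0.80 with the block (adjusted p = 0.00225). PDE3A, of the same family as PDE3B, rose by 0.60 in RFIplR with the block (adjusted p = 0.0186), with 0.42 in the pooled fit. These were the 1 lower gene in RFIneg against RFIpl and the 1 lower and 1 higher in RFIplR against RFIpl, 1 and 2 of 11 where 6.62% and 10.4% of all probes were called, with medians of 0.04 and 0.02 over the list. In RFIneg against RFIplR none passed, and HCAR1 (-0.57) and PTGER3 (0.16) had the smallest p.

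Of 14 genes of the droplet coat and fatty acid binding 11 were kept. CIDEC, a protein of droplet fusion, was 7.52 ± 0.48 in RFIneg, against 6.76 ± 0.69 in RFIpl (SD, n = 8 each), a difference of 0.76 (SE 0.28, adjusted p = 0.47, or 0.0244 with the block), the 1 call among 11 genes there, where 6.62% of all probes were called. FITM2, of droplet formation, fell by 0.73 in RFIplR against RFIpl with the block (adjusted p = 0.0360), with -0.76 in the pooled fit (adjusted p = 0.197). It was the 1 call among 11 genes in that comparison with the block, where 10.4% of all probes were called. In RFIneg against RFIplR none passed, and FITM2 (0.65) and FABP5 (0.56) had the smallest p.

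Of 13 genes of other lipases and of glycerol and fatty acid handling 11 were kept, and this list held the only gene of the 4 lists called in the pooled limma fit. The lists were drawn up with earlier results of these data known, so this call and the list median are a description only. CES1, a carboxylesterase that hydrolyses esters, stood at 5.64 ± 0.57 in RFIneg, 5.38 ± 1.05 in RFIplR and 2.31 ± 1.92 in RFIpl (SD, n = 8 each). It rose by 3.33 (SE 0.62, adjusted p = 0.0273) and by 3.07 (SE 0.62, adjusted p = 0.0348) over RFIpl, with 7 of 7 probes of the same sign. AQP11 rose by 0.99 in RFIneg with the block (SE 0.25, adjusted p = 0.0206), with the same difference in the pooled fit (SE 0.68, adjusted p = 1). With the block 2 of 11 genes rose in RFIneg against RFIpl, where 6.62% of all probes were called. In RFIplR against RFIpl 1 of 11 rose with the block, where 10.4% were called. The list median was 0.36 in RFIneg against RFIpl, 0.26 in RFIplR against RFIpl and 0.22 in RFIneg against RFIplR, beside 0.02, 0.01 and 0.03 over all genes. In RFIneg against RFIplR none passed, and GK, glycerol kinase (0.72), and ACSL1, an acyl-CoA synthetase (0.35), had the smallest p.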

How the data were processed

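Per the file headers, the deposited scanner files hold processed intensity per spot, made with Feature Extraction 10.7.3.1 by subtracting background, with no scaling from array to array. The deposited value table holds log2 values that matched log2 of that intensity centred on each array's median (SD of the difference at most 4.5e-10). Its 24651 probes were an alternative. The submitters' processing notes name R 2.10.0. The genome build was not given in the sources used here.

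Levels were log2 of the processed intensity (floor 1) minus log2 of each array's 75th percentile of non-control probes, without control and non-uniform spots. A probe was kept when well above background on at least 6 of 8 arrays of a group, with at most 6 arrays missing. Accessions were looked up among RefSeq genes of Sscrofa11.1 for names only, so 11932 probes had 1 symbol, 38 had several, 325 an identifier without a symbol and 31308 no name. No spot was saturated and no arrays were identical.

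A limma 3.58.1 fit (lmFit, eBayes, two-sided, R 4.3.3) covered 24 arrays, with Benjamini-Hochberg adjustment over 28606 probes and the threshold at 0.05. Adjusted p-values are limma's unless permutation is named. The script was tested on simulated data. The 8 pigs per group are separate samples, and their number limits the precision. Pair correlations used 100000 shuffles within groups. Named genes were the members at their probe of highest mean level, of each list the genes called in the pooled fit or with the brightness block, otherwise the 2 with the smallest p, and for each member the 3 genes most correlated with it, of which 2 are not reported here. The members, lists, fits and alternatives were chosen with earlier results of these data known. Brightness with slide or scan day, and the block without RFIpl replicate 3 or replicates 7 and 8, were added after seeing the files. Files were read with data.table (version 1.17.8), pandas 2.3.3 and Python 3.11.15, and figures drawn with matplotlib 3.10.9.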

Additional observations from a re-analysis of the deposited data

Results flagged for a closer look

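Of 24 sets of 8 arrays looked at (8 genes in 3 groups), 2 held an array far from the others by Dixon's test, where chance gives about 1 in 20 sets. AQP7 in RFIpl replicate 3 was 1.03, against -0.32 to 0.30 in the other RFIpl arrays, and this bright array also held the highest LIPE and ADORA1 of its group. PLIN1 in RFIneg replicate 7 was 3.29, against 1.93 to 2.55 in the other RFIneg arrays, and this array was a dim one.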

How the results depend on the processing

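Over 46 alternatives the differences of LIPE, PLIN1, AQP7 and ADORA1 between RFIneg and RFIpl kept their sign, in ranges of 0.36 to 0.67, 0.31 to 0.83, 0.55 to 0.91 and 0.59 to 1.03, and so did those of LIPE, PLIN1, AQP7, ADORA1 and ABHD5 between RFIplR and RFIpl, in ranges of 0.02 to 0.47, 0.06 to 0.56, 0.16 to 0.80, 0.37 to 0.78 and -0.91 to -0.44. In RFIplR minus RFIpl the LIPE value was lowest with normexp, and those of PLIN1 and AQP7 within dim arrays. In RFIneg minus RFIpl the values of LIPE, PLIN1 and AQP7 were lowest within scan day 1. The number of the 8 genes called in RFIneg against RFIpl, 0 in the pooled fit, was 4 with the brightness block, 1 within bright arrays, 5 with array weights, 4 without RFIpl replicate 2, 4 without RFIpl replicate 3 and 2 without RFIpl replicates 7 and 8, each of these 3 with the block, and 4 with brightness and scan day as blocks. In RFIplR against RFIpl these counts were 3, 2, 3, 1, 4, 0 and 1, and in the F test 4, 1, 5, 3, 4, 1 and 2. The shares of all probes called under these settings, in the same order, were 6.62%, 1.04%, 10.3%, 5.15%, 11.9%, 3.09% and 4.96% in RFIneg against RFIpl, 10.4%, 3.34%, 9.63%, 10.9%, 12.8%, 6.23% and 10.2% in RFIplR against RFIpl, and 9.03%, 1.70%, 12.4%, 7.96%, 13.1%, 4.15% and 7.91% in the F test. Leaving out 1 array of the pooled fit gave 0 to 3 genes in RFIneg against RFIpl, 0 to 0 in RFIneg against RFIplR, 0 to 1 in RFIplR against RFIpl and 0 to 2 in the F test, each highest without RFIpl replicate 3. The other alternatives called 0 genes: slide or scan day as a block, slide with brightness, dim arrays or 1 scan day alone, normexp, quantile scaling, other filters, the deposited table, a trended variance, the mean of all probes of a gene and only the 2 groups compared. The replicate block called 0 in each comparison. Whether the numbers pair the arrays cannot be told from deviations from the group means, because brightness was not taken out of them. Same-numbered arrays correlated at -0.82 to 0.88 in these deviations, with a median of -0.08, against 0.5 for other pairs across groups. Of 24 arrays 0 correlated best with their own number. The count of all probes called with the brightness block, 1895, 0 and 2964 in RFIneg against RFIpl, RFIneg against RFIplR and RFIplR against RFIpl, was 59, 0 and 85 without it, and the cause was not tested.

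Signs turned, with the cause not tested, for PNPLA2, MGLL, ABHD5, PDE3B and PLIN1, the last in RFIneg minus RFIplR only. In RFIneg minus RFIpl they were PNPLA2 within scan day 1 (-0.06) and with array weights (-0.01), MGLL within scan day 1 (-0.21), ABHD5 within dim arrays (0.20) and within scan day 2 (0.08), and PDE3B within dim arrays (-0.01), within scan day 1 (-0.29), with normexp (-0.02), without RFIpl replicate 2 with the block (-0.07), with brightness and slide (-0.01) and with brightness and scan day (-0.00), and -0.08 to 0.12 with 1 array left out. In RFIneg minus RFIplR they were PNPLA2 within bright arrays (-0.11), within scan day 1 (-0.12) and with array weights (-0.07), ABHD5 at -0.32, -0.16 and -0.20 under the same settings and -0.04 to 0.29 with 1 array left out, PLIN1 within bright arrays (-0.02), with quantile scaling (-0.04) and with array weights (-0.02) and -0.11 to 0.09 with 1 array left out, and PDE3B with normexp (-0.25). In RFIplR minus RFIpl they were PNPLA2 with the brightness block (0.01), within bright arrays (0.17), with the slide block (0.01), within scan day 1 (0.05), with array weights (0.07), with brightness and slide (0.08), with brightness and scan day (0.04), without RFIpl replicates 7 and 8 with the block (0.04) and -0.12 to 0.08 with 1 array left out, MGLL within bright arrays (0.07), with the slide block (0.16), within scan day 2 (0.09), with brightness and slide (0.19), without RFIpl replicate 3 with the block (0.05) and -0.18 to 0.04 with 1 array left out, and PDE3B with normexp (0.23). The median of all probes was -0.19 in RFIneg minus RFIplR and 0.20 in RFIplR minus RFIpl with normexp, against -0.01 and 0.01 in the pooled fit, and these PDE3B values include that shift. Without the filter on dim probes it was 0.14 in RFIplR minus RFIpl. On dim arrays the low signal over background limits what can be told apart.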
